A study of Drosophila melanogaster with 42 samples.

Results

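The regions described here are 44 candidate regulatory DNA fragments that were named for individual genes, out of 491 fragments in the tables and 107 gene-named ones. They were chosen by a rule on names. A fragment was kept when its identifier did not begin with the labels of the 3 large sets (ChIPCRM, CBP and DHS_), and when its gene was not among the genes listed for the other gene-named fragments. The rule itself uses no measured value, but it was set with earlier results of these data known. The 44 fragments carry the names of 33 genes, all matched to a RefSeq symbol. They were 948 to 1101 bp long with a median of 1024 bp, and their GC content was 29.5% to 50.9%. Their median GC content of 42.8% was close to the 42.2% of all other fragments. By chromosome arm, 10 lie on 2L, 10 on 2R, 5 on 3L, 11 on 3R and 8 on X.

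An enhancer is a stretch of DNA that raises the transcription of a gene in particular cells, often from a distance and in either orientation. In the assay used here each fly line carries a candidate fragment next to a GFP reporter. Where the fragment is active the cell turns green, so its DNA is carried into the sorted green cells and the fragment gains in share over all cells of the population. A fragment that is silent in those cells loses share. The tagged cells were those expressing rat CD2, a surface protein used as a handle for antibody staining. The tag is driven by sequences of twi, which encodes a mesodermal transcription factor, mef2, which encodes a muscle transcription factor, or duf, which encodes an adhesion protein of muscle founder cells.

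Males from a mixed pool of Drosophila melanogaster reporter lines were crossed to females carrying twi-CD2, mef2-CD2 or duf:CD2, so every embryo examined carried a CD2 transgene and a GFP reporter. Embryos were collected over 2 to 2.5 h at 25 degrees and aged for 9 to 10 h at 18 degrees, then dissociated and sorted. The 42 libraries form 12 groups. For twi there were 3 GFP+ libraries and 3 input libraries of CD2+ cells, and the same numbers of CD2- cells. For mef2 there were 3 GFP+ and 3 input libraries of CD2- cells, and for duf 6 of each. The GFP+ CD2+ cells of mef2 and of duf gave 1 library each, and the study compared each with 5 small inputs of CD2- cells. Those small inputs held 20048 to 39668 cells, against 100000 to 200000 cells in the other inputs. The single CD2+ library of mef2 or duf therefore differs from its control in the CD2 gate as well as in GFP, and these cannot be told apart. DNA extracts were pooled by sample type before PCR, and the labels do not say that numbered libraries came from separate crosses, so the p-values measure only a spread between libraries that may be technical.

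The libraries held 15601850 to 30671351 reads assigned to fragments. A level is given below as CPM, the reads of a fragment per 1000000 reads assigned to all fragments of that library. The limit that 3 reads set was 0.0978 to 0.192 CPM, and limits of this kind cover counting error only, since PCR reads without molecular identifiers are not independent molecules. Fold changes come from edgeR's quasi-likelihood test fitted on all fragments that passed its count filter, with TMM scaling, a Benjamini-Hochberg adjustment over all of them and a threshold of 0.05. In the comparisons with replicates TMM sets the typical fragment nearer to no change, whereas CPM values keep the loss of share that most fragments had in GFP+ cells. In the single mef2 CD2+ and duf CD2+ libraries the median log2 change of all tested fragments was -2.29 and -0.72 with TMM. For the difference between the CD2+ and CD2- changes it was 0.11 for twi, -1.40 for mef2 and -0.79 for duf. Scaling by total reads instead moved the median log2 change of all tested fragments by -1.61 for twi CD2+, -1.30 for twi CD2-, -1.58 for mef2 CD2- and -2.07 for duf CD2-. Changes below are therefore relative to the other fragments, and the CPM values are printed beside them.

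Of the 44 fragments, 38 reached 100 reads in at least 1 library. In 20 of them (45.5%) this happened only in duf libraries, against 43.2% of all other fragments, and in 16 (36.4%, against 38.7%) it happened with all 3 drivers. The long-named CG32066 fragment reached it with mef2 and duf, and jumu_a_4 with twi and duf. All 5239 twi reads of jumu_a_4 were end reads, and its last 30 bp are shared with ChIPCRM2002. Those reads therefore do not show that jumu_a_4 itself was present with twi. CG30115_27, Jupiter_16 and jumu_a_3 had no read in any of the 42 libraries. CG31640_11, rgr_Dn and CG3303_up_1 had reads but never more than 9, 8 and 1 in a library. The inputs lacked them as well, so the libraries hold no measurement of their activity.

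Together the 44 fragments held a smaller share of the reads in GFP+ cells than in inputs in every replicated population. In twi CD2+ cells they held 6.57% ± 2.25 (SD, n = 3) of the input reads and 1.30% ± 0.811 (SD, n = 3) of the GFP+ reads. The shares for twi CD2- cells were 6.98% ± 1.90 and 1.75% ± 0.716 (SD, n = 3 each). For mef2 CD2- cells they were 2.87% ± 0.438 and 0.629% ± 0.201 (SD, n = 3 each). With duf CD2- cells the input share was 5.06% ± 0.857 and the GFP+ share 1.78% ± 0.494 (SD, n = 6 each). The GFP+ libraries lay below the inputs without overlap in all 4 cases. The single duf CD2+ GFP+ library held 4.22% in these fragments, below its 5 small inputs (5.09% to 6.71%). The single mef2 CD2+ library held 2.73%, inside the range of its small inputs (0.305% to 5.80%). Other sets moved in both directions, since the DHS fragments went from 10.3% ± 1.03 to 2.94% ± 0.407 of reads in duf CD2- cells (SD, n = 6 each), while the CBP fragments went from 7.93% ± 2.03 to 27.1% ± 0.503.

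Few of the fragments passed a test. Among duf CD2- fragments 1 of 32 tested was called higher in GFP+ cells, where 11.8% of all 400 tested fragments were, and 0 were called lower, where 1.25% were. Among mef2 CD2- fragments 0 of 11 were called higher (5.46% of all 183) and 1 was called lower (2.19%). For twi CD2+ cells 0 of 16 were called higher (5.13% of all 195) or lower (0.0%). For twi CD2- cells 0 of 16 were called higher (2.94% of all 204) or lower (0.0%). At an unadjusted edgeR p of 0.05 the members passing were 1 for duf CD2- (17.2% of all fragments), 4 for mef2 CD2- (24.0%), 2 for twi CD2+ (13.3%) and 1 for twi CD2- (13.7%). The small mef2 CD2+ and duf CD2+ comparisons called 0 of 18 and 0 of 38 members in either direction, where 0.0% and 0.235% of all fragments were called, with 1 and 3 members at an unadjusted p of 0.05 (6.96% and 7.06% of all fragments). The members called lower by DESeq2 were 2 of 16 in twi CD2+ cells (5.64% of all fragments), 1 of 16 in twi CD2- cells (4.41%), 4 of 11 in mef2 CD2- cells (13.7%) and 8 of 38 in the duf CD2+ library (16.9%). In duf CD2- cells DESeq2 called 1 of 32 higher (14.5%), and in the mef2 CD2+ library it called 0 of all 230 fragments in either direction (0.0%).

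On the TMM scale the median log2 change of the tested members was -0.93 in twi CD2+ cells, where the median of all tested fragments was -0.51. It was -0.30 against -0.29 in twi CD2- cells and -1.13 against -0.40 in mef2 CD2- cells. The duf CD2- cells gave -0.19 against -0.07, and there the log2 change of 12 of the 32 members had the other sign when scaled by total reads. In CPM no member had all GFP+ libraries above all inputs in these 4 populations, against 6.67%, 3.43%, 8.74% and 4.0% of tested fragments for twi CD2+, twi CD2-, mef2 CD2- and duf CD2-. All GFP+ libraries lay below all inputs for 8 of 16 members in twi CD2+ cells (41.5% of all fragments), 6 of 16 in twi CD2- cells (38.2%), 5 of 11 in mef2 CD2- cells (41.5%) and 7 of 32 in duf CD2- cells (22.2%).

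The fragments of transcription factor genes included the one member called higher. hth encodes a homeodomain protein that works as a cofactor of Hox proteins, and the fragment hth_3 lies at 3R 6427784 to 6428746 (dm3, 963 bp, GC content 48.6%). In duf CD2- cells its GFP+ libraries held 2254, 11124, 13915, 5382, 3027 and 4984 CPM for replicates 1 to 6. The inputs of the same numbers held 340.1, 3750, 3198, 2352, 677 and 620 CPM. The groups overlapped, because replicates 1 and 5 of the GFP+ cells were below the highest inputs. Each GFP+ library was nevertheless above the input of its own number, by 6.63, 2.97, 4.35, 2.29, 4.47 and 8.04 times. The edgeR log2 change was 4.01 ± 0.70 (SE, n = 6 against 6) with an adjusted p of 0.000521. Scaling by total reads gave 1.90 with an adjusted p of 0.0462, so the size of the change rests on the scaling while the call held in all 19 alternatives. On the TMM scale the log2 differences within sequencing lanes 1 and 8, the lanes that held both groups, were 6.13 and 3.81. Lane 1 set GFP+ replicate 4 against input 1, and lane 8 set GFP+ replicate 1 against inputs 5 and 6. No libraries of the same number were compared there, and these inputs were the lowest for hth_3.

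hth_3 was also the most abundant member in the GFP+ CD2+ cells of duf. That library held 14865 CPM, which ranked 10 among 408 fragments with reads, and the GFP+ CD2- mean of 6781 CPM ranked 22 among 442. The 5 small inputs held 18.9, 24.7, 110, 26.9 and 1556 CPM, so the CD2+ library was above them all, and small input 5 stood far above the other 4. edgeR gave 5.98 ± 1.94 on the log2 scale (SE, n = 1 against 5, adjusted p = 0.342), which does not pass. Taking the spread from all 4 duf groups gave an adjusted p of 0.0288, and leaving out small input 5 gave 8.90 on the log2 scale (adjusted p = 0.0885). The difference between the CD2+ and CD2- changes was 2.16 ± 1.86 on the log2 scale (edgeR adjusted p = 0.829). Without small input 5 that difference was 5.19 with an adjusted p of 0.302. In the 24 twi and mef2 libraries hth_3 had only 5 reads, all in twi CD2- inputs.

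Counted by pairs of the same number in duf CD2- cells, hth_3 was above its own input in 6 of 6 pairs, as were 6.75% of all tested fragments, and no other tested member was. Of the 32 tested members, 18 were below their own input in 6 of 6 pairs, near the 50.0% of all tested fragments that were.

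eg encodes a zinc-finger protein of the nuclear receptor type that acts in neurons, and eg_36 lies at 3L 21795459 to 21796498. Its single mef2 CD2+ GFP+ library held 13066 CPM, against 50.7, 154, 21.9, 16.2 and 4.09 CPM in the small inputs. The larger mef2 CD2- inputs held 3019, 1501 and 4465 CPM and the GFP+ CD2- libraries 0.861, 1274 and 0.177 CPM. The CD2+ library thus stood above every other mef2 library. The edgeR log2 change against the small inputs was 8.00 ± 3.35 (SE, n = 1 against 5), with an adjusted p of 0.537. Of the 18 tested members, 2 lay above all small inputs of mef2, near the 13.0% of all fragments that did. None lay below all of them, where 12.2% of all fragments did. In duf CD2- GFP+ cells eg_36 was near 0 in 5 libraries and at 61.7 CPM in replicate 1.

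noc encodes a zinc-finger protein and jumu a forkhead protein. noc_6 had 1.58 to 4401 CPM with a median of 1372 in duf CD2- GFP+ cells, and 196 to 8680 CPM with a median of 1931 in the inputs (n = 6 each). The groups overlapped across most of their range, and the log2 change was 1.14 ± 1.12 (edgeR adjusted p = 0.815), or -0.83 when scaled by total reads. noc_6 shares 852 bp with ChIPCRM6084. Of the 12 members that overlap another fragment 11 had counts that were not whole, and no other member did, so reads in shared sequence appear to have been divided. jumu_a_8 had a median of 505 CPM in duf CD2- GFP+ cells (210.1 to 969) and 2010 CPM in the inputs (1498 to 2349). Every GFP+ library was below every input, while the log2 change was 0.39 ± 0.65 on the TMM scale (edgeR adjusted p = 0.938) and -1.74 when scaled by total reads. With mef2, jumu_a_8 in CD2- cells held 0.402, 0 and 3.43 CPM, against 1927, 1507 and 3573 CPM in the inputs. That difference had a log2 change of -9.46 ± 3.06 and did not pass with edgeR (adjusted p = 0.0972), while DESeq2 gave an adjusted p of 1.69e-05. jumu_a_8 shares 515 bp with ChIPCRM2004, which had 0 reads in all mef2 libraries. In duf CD2- cells ChIPCRM2004 had means of 4442 CPM in GFP+ cells and 12363 CPM in inputs, against 587 and 1959 CPM for jumu_a_8. The duf levels of jumu_a_8 therefore depend on how reads of the shared sequence were divided.

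The remaining jumu fragments also show how overlap limits a level. jumu_a_4 (3R 6178515 to 6179610) shares 804 bp with ChIPCRM2000 and its last 30 bp with ChIPCRM2002. The tables count reads at the start and at the end of each fragment separately. Over the 42 libraries jumu_a_4 had 0 reads at its start and 45886 at its end, while ChIPCRM2002 had 45911 at its start. Its 5239 twi reads were all end reads, where the median fragment had 20.9% of its twi reads at its ends. The level of jumu_a_4 can therefore not be told apart from those of its neighbours, and its duf CD2- values (0 to 745 CPM in GFP+ cells, 113 to 1222 CPM in inputs) are given with that limit.

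The next 8 fragments belong to genes for cytoskeleton and cell division. They include the only 1 of 11 tested members called lower in mef2 CD2- cells, where 2.19% of all fragments were. cib encodes a thymosin-beta protein that binds actin, and cib_Up_4 lies at X 4000996 to 4002074. In mef2 CD2- cells its GFP+ libraries held 9.99, 11.8 and 3.72 CPM and its inputs 5497, 5316 and 9850 CPM. The lowest input was far above the highest GFP+ library. The edgeR log2 change was -8.05 ± 1.86 (SE, n = 3 each) with an adjusted p of 0.0433. The call was lost without a count filter (0.0693), with replicate number as a block (0.159), without input 1, 2 or 3 (0.129, 0.144 and 0.144) and without GFP+ replicate 3 (0.0560), and the log2 change stayed between -7.54 and -8.21 under these settings.

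cib_Up_4 was also the most abundant member of the twi inputs, at a mean of 22857 CPM in CD2+ and 23810 CPM in CD2- cells, ranking 9 among all fragments in each. Its twi CD2+ GFP+ libraries held 5852, 3645 and 7791 CPM against 35714, 19706 and 13150 CPM. Its twi CD2- GFP+ libraries held 11728, 11627 and 31.2 CPM against 31780, 19832 and 19817 CPM, so replicate 3 was far below the other GFP+ libraries. On the TMM scale the log2 changes were -0.44 ± 0.66 and -0.34 ± 1.39 (edgeR adjusted p = 0.819 and 0.995). With duf, CD2- GFP+ cells held a median of 508 CPM and the inputs 2621 CPM, with a log2 change of 0.10 ± 0.70 (edgeR adjusted p = 0.977), or -1.92 when scaled by total reads. DESeq2 gave 0.01 and 0.32 in twi CD2+ and twi CD2- cells, so these small changes have no settled direction.

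mud encodes a protein that orients the mitotic spindle, and mud_a lies at X 14148156 to 14149216. The twi CD2+ GFP+ libraries held 4.76, 2.30 and 2.05 CPM against inputs of 3535, 2657 and 6230 CPM. All 3 lay far below all inputs, but the edgeR log2 change of -8.78 ± 2.26 did not pass (adjusted p = 0.0609). It passed when scaled by total reads (0.0269), which called 2.05% of all fragments lower, and with DESeq2 (1.63e-08). In twi CD2- cells the GFP+ libraries held 0.425, 8.54 and 9772 CPM against 976, 554 and 562 CPM, so replicate 3 alone stood above the inputs. The difference between the CD2+ and CD2- changes was -12.60 ± 3.85 on the log2 scale (edgeR adjusted p = 0.181). The second mud fragment, mud_c_d, was seen only with duf, with a median of 47.5 CPM in CD2- GFP+ cells and 1630 CPM in the inputs, and 3304 CPM in the CD2+ library.

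betaTub60D encodes a beta tubulin of the mesoderm and its derivatives. Its fragment betaTub60D_17 (2R 20203572 to 20204550) held 1356, 0.130 and 1.17 CPM in twi CD2+ GFP+ cells and 1368, 1.10 and 8.26 CPM in twi CD2- GFP+ cells. Both sets of inputs were far higher, at 21161, 5802 and 6449 CPM and at 19046, 11368 and 15072 CPM. Replicate 1 was the high library in both GFP+ populations. The edgeR log2 changes were -2.99 ± 2.49 (adjusted p = 0.756) and -3.80 ± 2.28 (adjusted p = 0.727), and without twi CD2+ GFP+ replicate 1 the former became -12.79 with an adjusted p of 0.0254. The duf CD2- GFP+ median was 0.867 CPM and the input median 1751 CPM, without overlap, and the log2 change was -1.74 ± 1.56 (edgeR adjusted p = 0.791).

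pnut encodes a septin, numb an inhibitor of Notch in asymmetric division, and stau a double-stranded RNA-binding protein that localises mRNAs. All 3 fragments reached 100 reads with duf only. pnut_13 had the second-highest log2 change of the tested members in duf CD2- cells, 2.50 ± 1.38 (edgeR adjusted p = 0.456), from 0.176 to 1062 CPM in GFP+ cells and 10.8 to 807 CPM in inputs. numb_34 reached 385 and 388 CPM in GFP+ replicates 1 and 2 and stayed below 1 CPM in the other 4, while its inputs ran from 1.95 to 2807 CPM. stau_29 ran from 0.0437 to 921 CPM in GFP+ cells and from 0 to 1718 CPM in inputs. For all 3 the groups overlapped.

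Another 10 fragments belong to genes for membrane, adhesion and signalling proteins. Grip, which encodes a PDZ-domain scaffold protein, had the largest levels. Grip_23 (X 5868308 to 5869337) held 13361 CPM in the single mef2 CD2+ library, inside its small inputs, which ranged from 151 to 30273 CPM. The mef2 CD2- cells held 1293, 1.65 and 4618 CPM in GFP+ cells and 11313, 2813 and 7254 CPM in inputs. The twi CD2+ cells held 396, 9.16 and 5694 CPM in GFP+ cells, below all inputs at 10485, 5829 and 14421 CPM. None of its edgeR tests passed, with log2 changes of -1.02, -1.69 and -0.42 in twi CD2+, twi CD2- and mef2 CD2- cells, the last of which was 0.52 with DESeq2.

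Sur encodes a protein of the sulfonylurea receptor family. Sur_39 had the lowest log2 change of the members tested in duf CD2- cells, -2.15 ± 1.14 (edgeR adjusted p = 0.399). Its 6 GFP+ libraries ran from 1.85 to 523 CPM with a median of 208, and its inputs from 687 to 9595 CPM with a median of 2618. The groups did not overlap in CPM, and scaling by total reads called it lower (-4.06, adjusted p = 0.0227). That scaling called 4 of 32 members lower in duf CD2- cells, where it called 23.8% of all 400 fragments lower. CG32560_43, named for the gene of the RasGAP raskol, also lay below its inputs, at 0.326 to 276 CPM against 319 to 530.0 CPM, with a log2 change of -0.54 ± 1.39 (edgeR adjusted p = 0.949).

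The other fragments of this kind with reads had lower medians in duf CD2- GFP+ cells than in the inputs. TyrR_33, of the octopamine and tyramine receptor gene Oct-TyrR, had a median of 88.5 CPM in GFP+ cells and 902 CPM in inputs. G-oalpha47A_5, of the G protein alpha subunit gene Galphao, had medians of 0.123 and 404 CPM, and mew_35, of the integrin alpha PS1 gene, medians of 5.33 and 359 CPM. For TyrR_33, G-oalpha47A_5 and mew_35 the groups overlapped, with lowest inputs of 202, 0.0392 and 0 CPM. CG13830_19, of Cow, which encodes a secreted Wg-binding proteoglycan, never exceeded 0.261 CPM in GFP+ cells and had a median of 185 CPM in inputs. Its inputs ran from 0.0454 to 1058 CPM, so the groups overlapped. CG13830_19 did not pass the count filter, and without that filter the edgeR log2 change was -9.78 with an adjusted p of 0.0196. CG30115_28, of GEFmeso, had medians of 0.0532 and 105 CPM, with inputs from 0 to 343 CPM, and also failed the filter. cenG1A_9, of the ArfGAP gene CenG1A, had medians of 5.44 and 79.7 CPM, and in mef2 CD2- cells it had 0 reads in GFP+ cells, at least 211.3-fold lower than in the inputs when 3 reads over the group are taken as the floor. All of its 710 mef2 CD2- input reads lay in input 3. Over the duf libraries cenG1A_9 had 71 reads at its start and 2941 at its end.

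A further 7 fragments belong to genes for RNA-binding proteins, translation and enzymes. sm encodes a protein related to hnRNP L, and sm_25 (2R 15469409 to 15470420) was the only member with 100 reads in every one of the 42 libraries. In duf CD2- cells its GFP+ libraries ran from 111 to 1604 CPM with a median of 281, below all inputs at 2544 to 5223 CPM with a median of 4198. The log2 change was -0.82 ± 0.71 (edgeR adjusted p = 0.780), and it was among those called lower by total-read scaling (-2.92, adjusted p = 0.00910). In twi CD2+ cells sm_25 held 322, 1498 and 3986 CPM in GFP+ cells and 105, 10.9 and 4661 CPM in inputs. The groups overlapped there, and the log2 change was 1.77 ± 2.09 (edgeR adjusted p = 0.816). Its mef2 reads were uneven along the fragment, with 293 at the start and 30651 at the end. Of its duf reads, 64.2% were start or end reads, where the median fragment had 23.9% and the 95th percentile was 71.5%. The duf levels of sm_25 are given with that limit.

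CG3303 is the endoribonuclease gene EndoU, and 4 fragments carry its name. CG3303_down (3R 11735548 to 11736495) was seen with all 3 drivers and lay below its inputs in all 4 replicated comparisons. Of its mef2 reads, 54.9% were start or end reads, where the median fragment had 22.1%. The twi CD2+ cells held 743, 7.51 and 2975 CPM against 6650, 5953 and 5707 CPM. The duf CD2- median was 154 CPM against 2916 CPM, with a log2 change of -1.79 ± 1.07 (edgeR adjusted p = 0.533), and it too was among those called lower by total-read scaling (-3.84, adjusted p = 0.0227). CG3303_up_3 held 253, 0 and 0 CPM in twi CD2+ GFP+ cells and 1663, 0 and 0 CPM in twi CD2- GFP+ cells, where the inputs held 343 to 2189 CPM. Replicate 1 alone carried it in both populations. CG3303_up_2, which shares 523 bp with CG3303_up_1 and 519 bp with CG3303_up_3, reached 468 CPM in 1 duf CD2- GFP+ library and was at or near 0 in the other 5.

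CG7430_20, named for the gene of a dihydrolipoamide dehydrogenase, was the steadiest member in duf CD2- GFP+ cells. It held 699 to 1366 CPM with a median of 923, against 1081 to 4121 CPM with a median of 2220 in the inputs, and its log2 change was 0.73 ± 0.57 on the TMM scale (edgeR adjusted p = 0.751) and -1.37 when scaled by total reads. Its CV was 25.1%, the lowest of 36 members with 100 reads in a duf CD2- GFP+ library. Elf_13, of the translation release factor gene eRF3, had medians of 0.140 CPM in GFP+ cells and 324 CPM in inputs.

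The remaining 13 fragments are named for genes whose role is not given here. The 3 CG13794 fragments differed in level with the duf driver. In CD2- cells CG13794_down had medians of 152 CPM in GFP+ cells and 1134 CPM in inputs, CG13794_up 0.948 and 182 CPM, and CG13794_a 48.6 and 304 CPM. CG13794_a and CG13794_up share 247 bp, and both had counts that were not whole. In mef2 CD2- cells CG13794_a had 0 reads in GFP+ cells, at least 2221-fold lower than in inputs with 3 reads over the group as the floor, where the inputs held 368, 0.103 and 0 CPM, so that input 1 alone carried it. Of the 3 rgr fragments, rgr_a_6 and rgr_a_7 share 602 bp. rgr_a_7 reached 100 reads with every driver, though 2 of its 3 mef2 CD2- inputs held 1.28 and 0.936 CPM and the other 1235 CPM. It held 1252, 3.86 and 775 CPM in twi CD2+ GFP+ cells, below all inputs at 8129, 4343 and 3253 CPM (log2 change -1.45 ± 1.78, edgeR adjusted p = 0.816).

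CG6972_4 was near 0 in 3 of 3 GFP+ libraries of twi CD2+ cells, at 0.0962, 0.0868 and 0 CPM. Its inputs held 1.18, 582 and 841 CPM, so 2 of 3 inputs stood far above all GFP+ libraries. The edgeR log2 change of -11.12 ± 4.10 did not pass (adjusted p = 0.202), while DESeq2 gave an adjusted p of 9.12e-06. CG6972_4 was not low everywhere. In mef2 CD2- cells its GFP+ mean was 380 CPM (0 to 1138) and its input mean 182 CPM (0.197 to 546). The single duf CD2+ library held 145 CPM against a mean of 0.759 CPM in the small inputs. Means were lower than in inputs in twi CD2- (0.490 against 434 CPM) and duf CD2- GFP+ cells (9.03 against 113 CPM). The mef2 CD2+ library held 11.2 against 432 CPM. The CG32066 fragment (CG32066___CG32066___CG14154___CG14154___CG14153_19, 3L 10646426 to 10647404) held 0, 0 and 0.768 CPM in mef2 CD2- GFP+ cells and 1.801, 7516 and 524 CPM in the inputs. Its log2 change there was -11.97 ± 4.35 (edgeR adjusted p = 0.134), and input 1 was close to the GFP+ libraries. In duf CD2- cells it ran from 0.210 to 1537 CPM with a median of 427 in GFP+ cells and from 211 to 1870 CPM with a median of 1393 in inputs. The groups overlapped, and the log2 change was 0.94 ± 1.32 on the TMM scale (edgeR adjusted p = 0.938) and -1.16 when scaled by total reads. CG32813_28 held 0.747 to 1163 CPM in duf CD2- GFP+ cells but 0.274 CPM in the duf CD2+ library, where its small inputs held 137 to 9014 CPM. That difference had a log2 change of -13.39 ± 3.56 (edgeR adjusted p = 0.186). CG33316_15, of sick, had medians of 659 CPM in duf CD2- GFP+ cells and 2982 CPM in inputs. CG9300_12 had medians of 474 and 2704 CPM without overlap, and CG2875_7 medians of 57.7 and 661 CPM with overlap.

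The twi GFP+ libraries differed in how many members they held. Counting a fragment as present at 10 CPM, the 3 twi CD2+ inputs held 12, 16 and 13 of the 44 members and the GFP+ libraries 13, 2 and 6. The twi CD2- inputs held 12, 16 and 14 and the GFP+ libraries 12, 5 and 3. The count was close to that of the input in replicate 1 and lower in replicates 2 and 3. Input 1 came from 100000 cells in both gates, and inputs 2 and 3 from 200000. The GFP+ libraries came from 100783 to 111875 CD2+ cells and 63849 to 66845 CD2- cells. The members counted were not always the same, since CG13794_a held 886 CPM in twi CD2- GFP+ replicate 1 and 1.49 CPM in input 1. Of the 15 members that reached 10 CPM in a twi GFP+ library, 7 did so in replicate 1 alone, as did 14 of 175 other fragments. The 15 include jumu_a_4, whose twi reads were all end reads. The duf CD2- GFP+ libraries held 18 to 28 members with a median of 21 and the inputs 30 to 38 with a median of 35. The 5 small duf inputs held 22 to 29 with a median of 27. Cell numbers were 36206 to 55331 for these GFP+ libraries, 200000 for the inputs and 39668 for the small inputs. The effect of cell number was not tested.

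The spread between libraries was wide. In duf CD2- GFP+ cells the median CV of the members was 144%, where that of other fragments was 99.4%. In the duf CD2- inputs, of 200000 cells each, the medians were 79.9% and 65.2%. The duf small inputs, of 39668 cells each, had medians of 102% and 96.5%. These GFP+ libraries came from 36206 to 55331 cells. In twi CD2+ GFP+ cells 13 of 14 members with 100 reads in a library were 10-fold or more apart between libraries, against 105 of 163 other fragments. The members were also less abundant in the duf CD2- inputs, the only inputs compared in this way. The median of their mean level was 744 CPM in duf CD2- inputs over 38 members, against 1462 CPM over 388 other fragments. Across those 38 members the mean input level rose with GC content (Spearman rho 0.486, given as a description, since all points share the same 6 libraries), and rho was 0.246 across the 388 other fragments.

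The CD2+ and CD2- cells of a driver were compared by the difference of their log2 changes. No member passed for twi (0 of 17), mef2 (0 of 18) or duf (0 of 38) with edgeR, where 0.0%, 0.433% and 0.0% of all tested fragments were called. At an unadjusted p of 0.05 the members passing were 2, 4 and 5, where 9.95%, 15.6% and 6.98% of all fragments passed. DESeq2 called 3 of 18 members for mef2, all higher in CD2+ cells, where it called 5.63% of all fragments higher. It called 8 of 38 for duf, all lower, where it called 19.3% lower, and 0 of 17 for twi, where it called 5.21% in either direction. The largest of the twi differences by size was that of rgr_a_6, 14.07 ± 6.41 on the log2 scale (edgeR adjusted p = 0.480), which rests on 440.1 CPM in GFP+ replicate 1 of CD2+ cells and 0 CPM in the other 2, and without that replicate it was -1.76. In the single duf CD2+ library 7 of 38 members lay above all small inputs (12.2% of all fragments) and 7 lay below them (24.7%).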

How the data were processed

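Fragment DNA was amplified by nested PCR from sorted embryo cells and sequenced, per the labels' protocols. The submitters' processing notes name CASAVA 1.8 and genome build dm3; the deposited tables' own names carry that of the read mapper segemehl, with no description of its settings. For each fragment the authors' tables give an expected count of reads, which was not whole for 2 to 87 fragments per library and whose rule for shared sequence is not stated. They also give the deposited count of reads at the start and at the end of the fragment. The deposited GC content is a fraction.

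The expected counts were rounded and tested in R 4.3.3 with edgeR 4.0.16 (limma 3.58.1), using filterByExpr, TMM scaling, the quasi-likelihood test and Benjamini-Hochberg adjustment over all fragments in each of 9 comparisons. Library depth was 15601850 to 30671351 reads. CPM used all reads of a library. For 11 libraries 3 fragments stood on 2 lines each, which were summed. Alternatives were scaling by total reads, DESeq2 1.42.0, other count filters, start and end reads only, a replicate block, a lane block, other controls or spreads, and each library left out. The code was tested on simulated data.

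The naming rule uses no measured value, but the members and the lists of genes were chosen with earlier results of these data known. Fragments are named with values where they passed a test, were separated between groups, ranked among the 5 most abundant members of a population or driver's inputs, or belong to a gene with 3 or more members. Other members are named in the text as a complete account. Of genes listed for ordering, only noc (muscle transcription factors) and mew (adhesion) are among the members. Same-numbered GFP+ and input libraries deviated together in duf CD2- (r 0.184 to 0.383), twi CD2+ (0.173 to 0.314) and twi CD2- cells (0.184 to 0.247). There the numbers appear to pair libraries, though these correlations were not tested. The log2 changes and p-values printed come from fits without a replicate block unless stated. With the block the median log2 change of all tested fragments went from -0.07 to -0.89 in duf CD2- cells. It went from -0.51 to -1.53 in twi CD2+ cells and from -0.29 to -2.14 in twi CD2- cells. In mef2 CD2- cells r was 0.0722 to 0.194 and 1 of 3 pairs exceeded 0.1. Each of these 3 GFP+ libraries still had its highest r with the input of its own number, so pairing there is not settled. A genome sequence of build dm3 was not used here, so no fragment sequence is printed and positions within genes are not given. Symbols came from a RefSeq gene table, by locus tag for 16 members, by symbol for 21 and by synonym on the same chromosome for 7.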

Additional observations from a re-analysis of the deposited data

Results flagged for a closer look

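Dixon's criterion was applied to 96 sets of values, each of 1 member in 1 group of 5 or 6 libraries, and in 25 sets, from 18 members, 1 library stood far above the others. Chance gives about 1 in 20 for normally distributed values, a rate that does not carry over to CPM values, which cannot fall below 0. In every case it was the highest library of its group.

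In duf CD2- GFP+ cells the high values were 726 CPM for CG13794_a, 213 for CG13794_up, 276 for CG32560_43, 468 for CG3303_up_2, 53.9 for CG6972_4, 1383 for Grip_23, 61.7 for eg_36, 745 for jumu_a_4, 695 for mud_a and 1409 for rgr_a_7. In the duf CD2- inputs they were 7647 CPM for CG32813_28, 11056 for CG33316_15, 913 for eg_36 and 1696 for mud_a. In the duf small inputs they were 701 CPM for CG13794_a, 9272 for CG3303_down, 1072 for CG3303_up_2, 179.6 for eg_36, 1556 for hth_3 and 417 for rgr_a_6.

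In the mef2 small inputs they were 2141 CPM for CG6972_4, 5890 for Sur_39, 13676 for cib_Up_4, 15552 for jumu_a_8 and 28.0 for rgr_a_6. Sur_39 had 0 reads in the other 4 of these small inputs, and the next highest value of jumu_a_8 there was 77.3 CPM. The next highest values of CG3303_up_2 were 0.105 CPM in duf CD2- GFP+ cells and 0.382 CPM in the small inputs. No cause was tested.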

How the results depend on the processing

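The single higher call in duf CD2- cells was hth_3 under all 19 alternatives, with log2 changes of 1.90 to 4.86. With the replicate block, which applies if the numbers pair libraries there, its log2 change was 4.20 (edgeR adjusted p = 4.47e-05). The numbers of members called lower varied more. In twi CD2+ cells, with 0 called, scaling by total reads gave 1, DESeq2 2, and leaving out 1 library 0 to 1. In twi CD2- cells, with 0 called, DESeq2 gave 1. In mef2 CD2- cells, with 1 called, DESeq2 gave 4, no count filter 0, the replicate block 0, and leaving out 1 library 0 to 1. In duf CD2- cells, with 0 called, scaling by total reads gave 4, no count filter 1, a mean count of at least 100 gave 2, and start and end reads only 1, where these settings called 95, 5, 6 and 4 of all fragments lower. In the duf CD2+ library the spread of all 4 groups gave 1 higher, all CD2- inputs as control gave 1 lower and DESeq2 gave 8 lower. For the difference between CD2+ and CD2- cells DESeq2 gave 3 higher for mef2 and 8 lower for duf. The cause of these changes was not tested. The replicate block changed no other count of calls. In mef2 CD2- cells, where it lost the 1 lower call, the correlations do not settle whether the numbers pair libraries. Of the log2 changes printed for single fragments, 9 reversed, none of them a call. In duf CD2- cells scaling by total reads gave -0.83 for noc_6, -1.74 for jumu_a_8, -1.92 for cib_Up_4, -1.37 for CG7430_20 and -1.16 for the CG32066 fragment. The lane block gave -0.59 for cib_Up_4 and -2.85 for the CG32066 fragment, for which the replicate block gave -0.10. Leaving out 1 library gave -0.18 to 0.33 for cib_Up_4 in duf CD2-, -0.70 to 0.019 in twi CD2+ and -0.77 to 0.23 in twi CD2- cells, -1.72 to 0.55 for Grip_23 in mef2 CD2- cells, and -1.76 to 19.26 for the twi difference of rgr_a_6. DESeq2 gave 0.0071 and 0.32 for cib_Up_4 in twi CD2+ and twi CD2- cells and 0.52 for Grip_23 in mef2 CD2- cells. Levels under 3 reads, 0.192 CPM or less, were not measurable.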
